A study of Solanum lycopersicum with 18 samples.

Results

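Methyl jasmonate (MeJA), the volatile methyl ester of the wound hormone jasmonate, was given to seeds of the large-fruited tomato cultivar Stupicke during priming, and the transcriptome of these seeds was set against that of mock-primed Stupicke seeds. The comparison rests on 6 of the 18 poly(A) RNA-seq libraries of the series, 3 from MeJA-primed and 3 from mock-primed Stupicke seeds. Osmopriming lets seeds take up water in a solution too concentrated for the radicle to emerge. In both groups the seeds were kept for 48 h in polyethylene glycol at -1 MPa, with 2 mM MeJA or with none, so the mock-primed seeds had been primed too. Seeds for exudates were then washed and dried again for 48 h. RNA was extracted following the priming treatment, and whether before or after redrying is not stated. Each replicate pooled 30 whole seeds, which mixes embryo, endosperm and seed coat. The other 12 libraries came from MeJA-primed and mock-primed seeds of the small-fruited cultivar Criollo and of the dwarf cultivar Micro-Tom, 3 of each. The series was made to ask which genes an elicitor of defence induces in seeds.

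The 6 libraries held 19428866 to 20560389 estimated counts. Log-scale levels of the genes tested correlated at 0.980 to 0.987 between MeJA-primed replicates and at 0.975 to 0.991 between mock-primed replicates. Between a MeJA-primed and a mock-primed library they correlated at 0.970 to 0.985, a range that overlaps those within the groups. MeJA-primed replicate 1 was closer to mock-primed replicate 1 (0.985) than to MeJA-primed replicate 3 (0.980). The libraries carried seed transcripts. Among the most abundant annotated ones were a late embryogenesis abundant protein (Solyc10g078770.2.1), which averaged 40118 ± 6106 TPM (length-scaled transcript abundance, with the same total in every library) in MeJA-primed seeds and 35814 ± 4962 TPM in mock-primed seeds (SD, n = 3 each), and a vicilin storage protein (Solyc09g082340.2.1), at 15144 ± 2594 TPM in MeJA-primed seeds and 16437 ± 182 TPM in mock-primed seeds. Mock-primed replicate 3 stood apart. Of 16849 genes with a mean of at least 1 CPM (counts scaled to library size), 421 (2.50%) were there over 3 times lower than in both other mock-primed replicates, against 0 to 39 genes in each of the other 5 libraries. Summed over these 421 genes, the level was 5521, 4160.1 and 4089 TPM in the MeJA-primed libraries, against 7128, 5913 and 1062 TPM in mock-primed replicates 1, 2 and 3. MeJA-primed replicate 3 held 92 genes at over 3 times their level in both other MeJA-primed libraries, the most of any of the 6 libraries.

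In tomato leaves, jasmonate is sensed by COI1, an F-box protein that marks the JAZ repressors for degradation once the hormone binds. Loss of JAZ proteins frees MYC2, a bHLH transcription factor, which turns on wound and defence genes as well as the JAZ genes themselves, so that the response limits itself. Proteinase inhibitors, which block the digestive enzymes of insects and pathogens, are the best known products of this pathway in tomato. Jasmonate is made from plastid linolenic acid by a 13-lipoxygenase, allene oxide synthase, allene oxide cyclase and 12-oxophytodienoate reductase.

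MeJA priming mostly raised transcripts in Stupicke seeds. Of 19914 genes tested, 311 (1.56%) were called, of which 289 (1.45%) rose and 22 (0.11%) fell, at an adjusted p under 0.05 in edgeR's quasi-likelihood test with Benjamini-Hochberg adjustment. The median log2 fold change of MeJA over mock was 1.63 among the raised genes and -0.80 among the lowered genes, beside -0.01 over all genes tested. A log2 fold change of at least 1 was reached by 211 of the raised genes, and one of at least 3 by 72 of them. Only 8 of the lowered genes fell by 1 or more. Of the raised genes, 77 averaged under 1 TPM in mock-primed seeds, and 9 had no count there. In all 311 called genes the MeJA-primed and mock-primed replicates did not overlap, as was true of 15.4% of all genes tested. Descriptions were at hand for 2629 of the genes tested, of which 279 (10.6%) rose and 19 (0.723%) fell. These are genes picked out earlier as responsive to MeJA or as exudate proteins, so counts by description below are read beside these shares and not beside 1.45%. Because whole seeds were sampled, more cells of a type and more RNA per cell cannot be told apart.

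Together the 289 raised genes took up 12112, 15240.4 and 15866 TPM in the MeJA-primed libraries, against 5418, 5794 and 5398 TPM in the mock-primed libraries, a ratio of 2.60 between the means. The 22 lowered genes took up 495, 406 and 475 TPM in MeJA-primed seeds, against 816, 905 and 762 TPM in mock-primed seeds. These sums describe the genes that the test selected. The raised set thus filled 1.44% of the transcriptome of MeJA-primed seeds and 0.554% of that of mock-primed seeds. Of the calls, 139 raised and 4 lowered genes were also made when any one of the 6 Stupicke libraries was left out. Without mock-primed replicate 3, the library that stood apart, 180 of the 289 raised genes and 11 of the 22 lowered genes were still called, while the calls then numbered 181 raised and 45 lowered. With libraries of the same replicate number taken as pairs (the replicate block), 175 genes were called, 170 raised and 5 lowered.

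**Figure D1:**
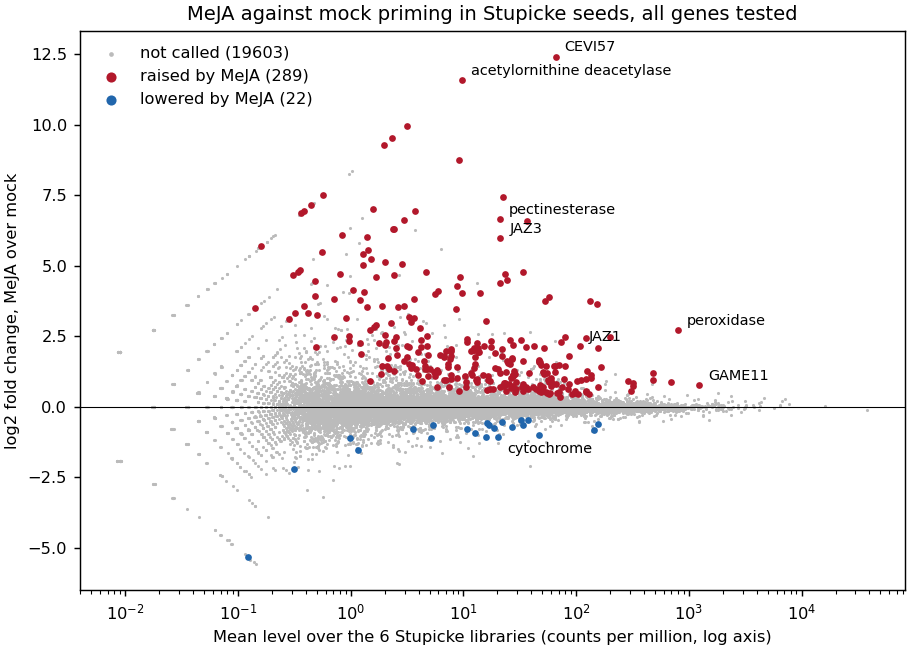
Log2 fold change of MeJA over mock (vertical axis) against the mean level over the 6 Stupicke libraries in CPM (horizontal log axis), 1 point per gene tested. The 289 raised genes (red) reach a log2 fold change of 12.41 in CEVI57, whereas most of the 22 lowered genes (blue) lie between 0 and -2.21.

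The list of JAZ repressors held 11 genes. JAZ8 and JAZ10 were too low to be tested, and the other 9 rose, where 1.45% of all genes tested did. Of these 9, 5 (JAZ2, JAZ4, JAZ7, JAZ9 and JAZ11) had 0 to 3 counts in the mock-primed Stupicke libraries together, so that within Stupicke their counts came almost wholly from MeJA-primed seeds and the filter itself favoured a rise. The other 4, JAZ1, JAZ3, JAZ5 and JAZ6, were detected in every library. JAZ1 (Solyc07g042170.3.1) was the most abundant, with 228, 229 and 214 TPM in MeJA-primed seeds, against 56.6, 51.7 and 43.9 TPM in mock-primed seeds (log2 fold change 2.16 ± 0.24 SE, adjusted p = 7.02e-05). JAZ3 (Solyc03g122190.3.1) was close to silent without the hormone, at 37.03, 37.5 and 28.8 TPM in MeJA-primed seeds, against 0.687, 0.572 and 0.385 TPM in mock-primed seeds (5.98 ± 0.29, adjusted p = 8.21e-09). The replicates of either group were thus far closer to each other than to the other group in both genes.

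JAZ5 (Solyc03g118540.4.1) and JAZ6 (Solyc01g005440.4.1), which were already present in mock-primed seeds, moved least among the JAZ genes. JAZ5 stood at 91.7, 96.0 and 92.5 TPM under MeJA, against 31.5, 34.5 and 34.997 TPM under mock (1.49 ± 0.12), and JAZ6 at 60.8, 72.3 and 63.3 TPM under MeJA, against 25.4, 21.7 and 25.2 TPM under mock (1.45 ± 0.16). JAZ2 (Solyc12g009220.2.1) gave 43, 61 and 55 counts in MeJA-primed seeds, against 1 count in each mock-primed library, 52.7 times as many after scaling for depth (95% counting limits 17.7 and 258). JAZ9 (Solyc08g036640.3.1) and JAZ4 (Solyc12g049400.2.1) also rose over 1 to 3 counts in mock-primed seeds, with ratios of 47.1 (15.8 to 231) and 38.8 (6.57 to 1572). JAZ7 (Solyc11g011030.2.1) and JAZ11 (Solyc08g036660.4.1) had no count in any mock-primed library and were at least 14.3-fold and 13.6-fold higher in MeJA-primed seeds, taking 3 counts over the 3 mock-primed libraries as the floor. Both stood on few counts, 43 and 41 over the 3 MeJA-primed libraries, and lost their call without any one mock-primed library (adjusted p up to 0.1 for JAZ7 and 0.105 for JAZ11), JAZ11 also without MeJA-primed replicate 3 (adjusted p = 0.0647).

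Upstream of the JAZ genes the changes were small. MYC2 (Solyc08g076930.1.1) had 38.1, 36.9 and 33.6 TPM in MeJA-primed seeds, against 22.2, 21.4 and 18.7 TPM in mock-primed seeds (0.82 ± 0.14, adjusted p = 0.00522). MTB1 (Solyc01g096050.4.1), a bHLH protein that dampens MYC2, rose by a similar factor, with 7.39, 6.08 and 6.93 TPM under MeJA, against 3.87, 3.75 and 2.78 TPM under mock (0.97 ± 0.15). Its relatives MTB2 and MTB3 and the NAC factors JA2 and JA2L, which act downstream of MYC2, did not pass the test, with log2 fold changes of 0.49 ± 0.15, 0.34 ± 0.10, 0.40 ± 0.33 and -0.34 ± 0.30. The receptor gene COI1 (Solyc05g052620.4.1) was called lower, at 16.9, 14.9 and 15.1 TPM in MeJA-primed seeds, against 20.9, 22.1 and 21.2 TPM in mock-primed seeds (-0.46 ± 0.11, adjusted p = 0.0491). That call was lost without any one Stupicke library, with adjusted p between 0.0819 and 0.243. A further bHLH gene that the annotation also names MYC2 (Solyc01g096370.4.1) stood at 1.13, 2.98 and 1.52 TPM in MeJA-primed seeds, against 0.166, 0.0320 and 0.0313 TPM in mock-primed seeds (4.61 ± 0.51).

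Among enzymes that make jasmonate, members of each step from the lipoxygenase to the reductase rose. Allene oxide cyclase (Solyc02g085730.3.1), present in this list as a single gene, reached 40.9, 48.1 and 35.3 TPM under MeJA, against 14.7, 15.8 and 9.52 TPM under mock (1.68 ± 0.19, adjusted p = 6.70e-05). OPR3 (Solyc07g007870.3.1), the reductase, rose by 1.55 ± 0.20 and AOS1 (Solyc04g079730.1.1), an allene oxide synthase, by 1.83 ± 0.31 on the log2 scale. LOXD (Solyc03g122340.3.1), the 13-lipoxygenase, rose by 0.96 ± 0.19, a call lost without MeJA-primed replicate 1 or without mock-primed replicate 1 or 2 (adjusted p = 0.0608, 0.0578 and 0.111). AOS2, the β-oxidation enzyme ACX1A and JAR1, which joins jasmonate to isoleucine, did not pass the test, at 0.54 ± 0.20, -0.04 ± 0.15 and -0.04 ± 0.15. Of the 7 synthesis genes tested, 4 rose and none fell at adjusted p under 0.05, beside 1.45% and 0.11% of all genes tested, while LOXC was too low to test.

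Oxylipin enzymes of the 9-lipoxygenase branch, which makes other fatty acid signals, were mixed. AOS3 (Solyc10g007960.1.1), the CYP74C3 enzyme that acts on 9-hydroperoxides, stood at 128, 175 and 108 TPM in MeJA-primed seeds, against 52.9, 39.5 and 28.7 TPM in mock-primed seeds (1.79 ± 0.20, adjusted p = 6.61e-05). The seed 9-lipoxygenase LOXA had 39.7, 57.3 and 11.3 TPM under MeJA, against 32.6, 28.9 and 1.59 TPM under mock, and its groups overlapped. A lipoxygenase of unnamed position specificity (Solyc05g014790.3.1) rose by 2.11 ± 0.20, with 16.4, 23.4 and 16.3 TPM under MeJA, against 4.23, 4.63 and 4.21 TPM under mock.

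**Figure D2:**
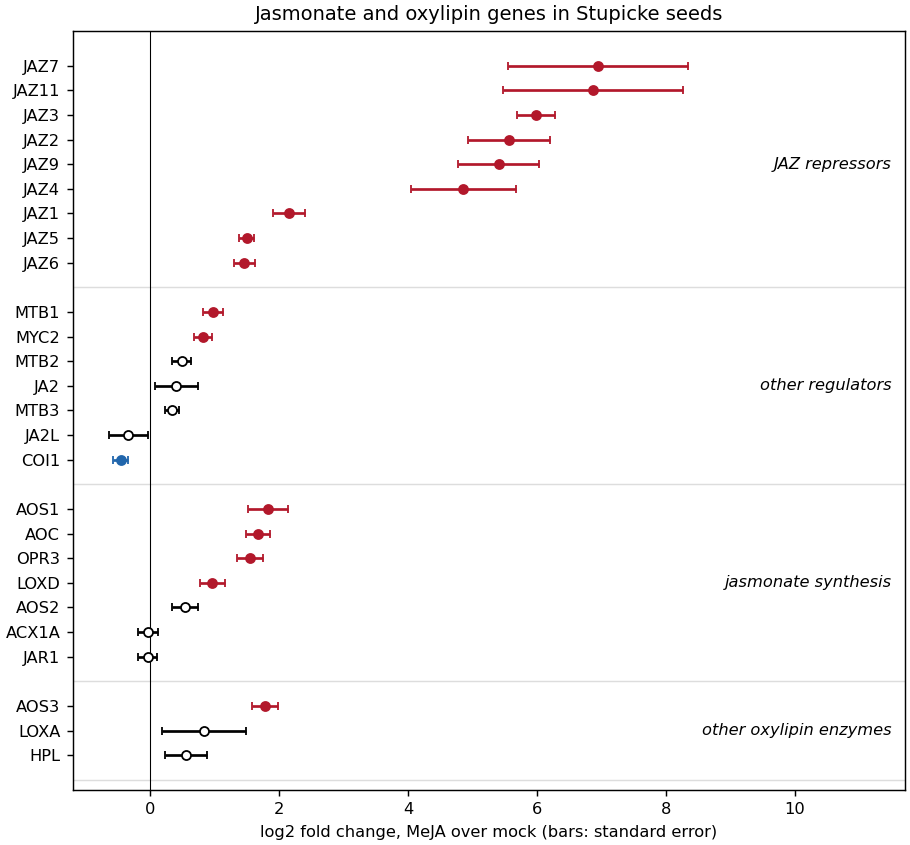
Log2 fold change of MeJA over mock in Stupicke seeds (horizontal axis, bars show the standard error) for the jasmonate and oxylipin genes tested, grouped by role, with filled symbols for genes at adjusted p under 0.05 (red raised, blue lowered) and open symbols for the others. All 9 JAZ genes lie between 1.45 and 6.94, while MYC2 and MTB1 lie below 1 and COI1 lies below 0.

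ILR1-like hydrolases, which in Arabidopsis split auxin and jasmonate conjugates, had 4 members with a description, and the 4 rose, beside 10.6% of all described genes. The family was chosen after these values were seen. ILR1-like 1 (Solyc05g006220.3.1) gave 47, 103 and 72 counts in MeJA-primed seeds and none in mock-primed seeds, and was at least 73.6-fold higher. ILR1-like 6 (Solyc10g079640.2.1) had 1.99, 4.26 and 2.90 TPM under MeJA, against 0.0740, 0.251 and 0.0347 TPM under mock (4.66 ± 0.43). The others, Solyc03g121270.3.1 and Solyc06g073060.3.1, rose by 0.79 ± 0.14 and 0.64 ± 0.13 and lost their calls without mock-primed replicate 2 (adjusted p = 0.0546 and 0.0982). Without mock-primed replicate 1 the first lost its call too (adjusted p = 0.0539), as did the second without MeJA-primed replicate 2 or mock-primed replicate 3 (adjusted p = 0.0814 and 0.0524). A gene annotated as acetylornithine deacetylase (Solyc08g076970.3.1), an enzyme of arginine synthesis in bacteria, had the second largest log2 fold change of the genes named by rule. It gave 259, 550 and 277 counts in the 3 MeJA-primed libraries and none in the mock-primed libraries, at least 360.2-fold higher.

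The largest change of all was in a proteinase inhibitor. CEVI57 (Solyc03g020050.3.1), a type II inhibitor of serine proteinases first described in viroid-infected tomato, stood at 213, 376 and 294 TPM in MeJA-primed seeds, against 0, 0 and 0.116 TPM in mock-primed seeds. The mock-primed libraries together held 1 count of it, against 7394 in the MeJA-primed libraries, 7358 times as many after scaling for depth (95% counting limits 1320.2 and 290653). Its neighbour in identifier order, the type-2 inhibitor Solyc03g020060.3.1, gave 45, 100 and 115 counts under MeJA and none under mock, at least 86.2-fold higher. A further type-2 inhibitor, Solyc03g098795.1.1, had 19.7, 41.5 and 31.98 TPM in MeJA-primed seeds, against 0.0966, 0.0930 and 0 TPM in mock-primed seeds, a ratio of 509 (141 to 4213). The metallocarboxypeptidase inhibitor Solyc07g007250.4.1, which blocks digestive carboxypeptidases, gave 39, 205 and 106 counts against none, at least 116-fold higher. These 4 genes were off or nearly off in every mock-primed library and on in every MeJA-primed library.

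By description, 6 of 9 protease inhibitor genes rose, beside 10.6% of all described genes, among them the 4 above, Solyc08g080630.4.1 and an inter-alpha-trypsin inhibitor heavy chain-like gene (Solyc03g122270.4.1, 3.198 ± 0.54). Of 17 inhibitor genes listed by identifier, 7 passed the filter and 3 of those rose, beside 1.45% of all genes tested. For inhibitor genes nearly without mock-primed counts, the filter itself favoured a rise within Stupicke, so these shares are not a like comparison. Of the other 4 of these 7, which are inhibitor I and Kunitz inhibitor genes, none was called. The inhibitor I gene Solyc09g084480.3.1 was seen at 3.62 TPM in MeJA-primed replicate 2 alone. Of 9 leaf wound markers tested, 2 rose and 7 were not called, beside 1.45% raised of all genes tested. Polyphenol oxidase Solyc08g074620.3.1 was one that rose, with 1.17, 1.95 and 1.16 TPM under MeJA, against 0.194, 0.0624 and 0 TPM under mock (4.06 ± 0.58, adjusted p = 8.52e-04). Leucine aminopeptidase A1 did not pass the test, and neither did threonine deaminase TD2, whose protein starves chewing insects of threonine. The first stood at 0.0892, 3.55 and 0.327 TPM under MeJA, against 0, 0.0296 and 0 TPM under mock, and the second at 0.0637, 1.76 and 0.127 TPM under MeJA, against 0 TPM in each mock-primed library, so that replicate 2 carried most of both. Arginase ARG2 (Solyc01g091170.3.1) had uneven replicates too, at 0.915, 8.51 and 4.63 TPM under MeJA, against 0.0358, 0.0348 and 0.0336 TPM under mock (adjusted p = 0.0331), where each mock-primed library held 1 count. Its call was lost in 5 of the 6 leave-outs, all but that of MeJA-primed replicate 1, with adjusted p between 0.0675 and 0.161, whereas its paralogue ARG1 was flat (-0.09 ± 0.10).

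The gene annotated as systemin receptor 2 (Solyc03g082450.3.1) was among the most even of the raised genes. Systemin is the peptide wound signal of tomato. The receptor gene stood at 4.94, 5.23 and 4.35 TPM in MeJA-primed seeds, against 0.273, 0.249 and 0.227 TPM in mock-primed seeds (4.27 ± 0.20, adjusted p = 7.65e-09). Herbivore elicitor-regulated 1 (Solyc03g112700.1.1) rose by 3.16 ± 0.34 as well, with 6.53, 7.92 and 9.04 TPM under MeJA, against 1.33, 0.967 and 0.378 TPM under mock.

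**Figure D3:**
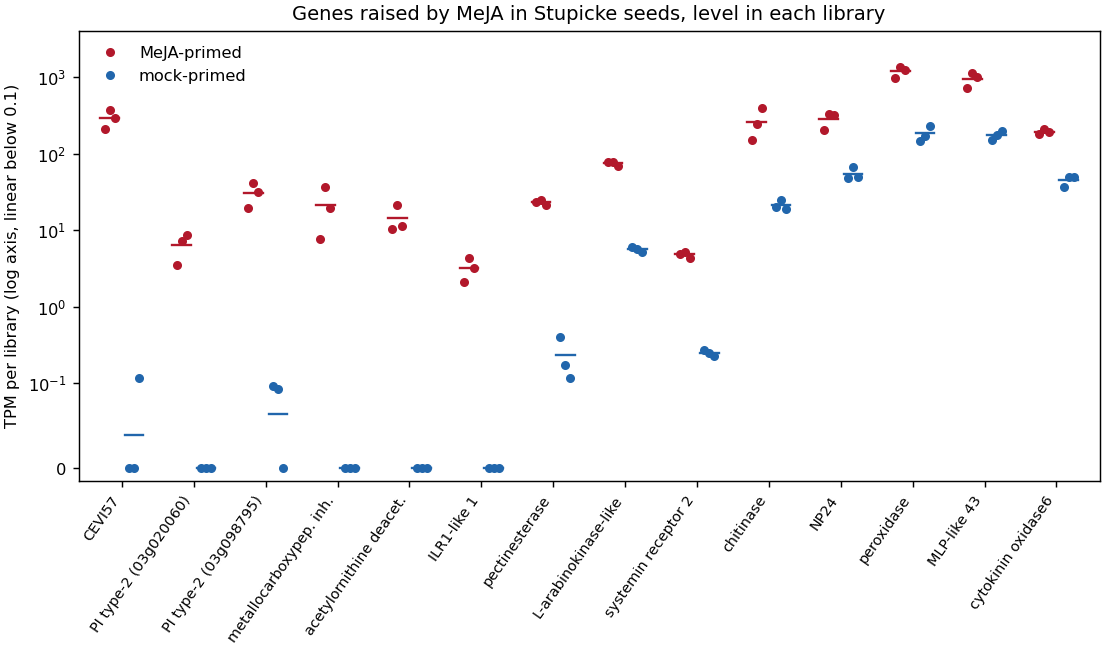
TPM in each library (vertical axis, logarithmic above 0.1 and linear below) of 14 genes raised by MeJA in Stupicke seeds, with MeJA-primed libraries in red left of mock-primed libraries in blue and a line at each mean. No MeJA-primed point falls as low as a mock-primed point of the same gene, and 4 of the genes are at 0 in all 3 mock-primed libraries.

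Of 20 genes described as pathogenesis-related proteins, 6 rose and none fell at adjusted p under 0.05, beside 10.6% and 0.723% of all described genes. A run of 5 neighbouring genes, Solyc08g080630.4.1 to Solyc08g080670.1.1, rose together, and most of them encode osmotin-like (PR-5, thaumatin-like) proteins, which are antifungal. NP24 (Solyc08g080640.2.1) was the strongest of them in level, with 205, 331 and 319 TPM in MeJA-primed seeds, against 48.1, 66.9 and 50.4 TPM in mock-primed seeds (2.43 ± 0.22, adjusted p = 7.48e-06). P23 (Solyc08g080650.3.1) stood at 67.7, 85.7 and 73.7 TPM under MeJA, against 11.9, 15.2 and 18.0 TPM under mock (2.38 ± 0.23). The first and last genes of the run rose by 3.54 ± 0.41 and 2.38 ± 0.40. The remaining one, the thaumatin family gene Solyc08g080660.1.1, rose by 1.65 ± 0.35, a call lost without MeJA-primed replicate 2 or 3 or without mock-primed replicate 1 (adjusted p = 0.0827, 0.0829 and 0.0566).

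Chitinases, which degrade fungal cell walls, had 6 described members. Of these 3 rose as another run, beside 10.6% of all described genes, and 3 were not called. Solyc10g055800.2.1 reached 153, 246 and 391 TPM in MeJA-primed seeds, against 20.16, 25.1 and 18.8 TPM in mock-primed seeds (3.66 ± 0.36, adjusted p = 1.83e-05). Its neighbour Solyc10g055810.2.1 was well expressed without the hormone, at 171, 187 and 228 TPM under MeJA, against 73.1, 94.8 and 79.7 TPM under mock (1.27 ± 0.18). The weakest of the run, Solyc10g055820.3.1, stood at 3.59, 4.66 and 4.35 TPM under MeJA, against 1.39, 1.00 and 0.648 TPM under mock, and lost its call in 5 of the 6 leave-outs, all but that of MeJA-primed replicate 1 (adjusted p between 0.0648 and 0.138). Reads from near-identical copies are shared out by the quantifier, so the split between neighbours of one family is uncertain here and in the other runs.

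The list held 2 defensins, small cysteine-rich antifungal peptides, and these did not move as a pair. The study names further defensin genes that are not on this list. In a wider family chosen by words for defensins and antimicrobial proteins, 5 of 24 genes rose and none fell, beside 10.6% and 0.723% of all described genes. Solyc07g007755.1.1 rose, with 7.60, 9.91 and 13.3 TPM in MeJA-primed seeds, against 2.58, 3.26 and 0.905 TPM in mock-primed seeds (2.25 ± 0.43, adjusted p = 0.0105). The call was lost without MeJA-primed replicate 3 (adjusted p = 0.0520) or without mock-primed replicate 3 (adjusted p = 0.0571). The far more abundant Solyc07g007710.4.1 had 336, 533 and 419 TPM under MeJA, against 385, 337 and 426 TPM under mock, with overlapping groups (0.28 ± 0.40).

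Several raised transcripts were abundant in both groups. A class III peroxidase (Solyc04g071890.3.1), an enzyme that cross-links cell walls, stood at 975, 1380.0 and 1243 TPM in MeJA-primed seeds, against 148, 172 and 234 TPM in mock-primed seeds (2.71 ± 0.21, adjusted p = 9.75e-07). MLP-like protein 43 (Solyc07g008710.3.1), of the major latex protein family, had 719, 1154 and 1008 TPM under MeJA, against 151, 174 and 199 TPM under mock (2.46 ± 0.32). A fatty acid desaturase (Solyc01g006430.3.1) stood at 552, 639 and 584 TPM under MeJA, against 299, 315 and 374 TPM under mock (0.86 ± 0.15). S-adenosylmethionine decarboxylase (Solyc05g010420.2.1), which supplies polyamine synthesis, had 419.9, 551 and 459 TPM under MeJA, against 260.5, 300.5 and 244 TPM under mock (0.86 ± 0.12). An F-box protein gene (Solyc07g008250.3.1) completed this group, with 204, 287 and 288 TPM under MeJA, against 124, 125 and 93.5 TPM under mock (1.197 ± 0.20).

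Steroidal glycoalkaloids, the antifungal alkaloids of tomato such as α-tomatine, are built from cholesterol by the GAME enzymes. All 10 GAME genes on the list were tested, 3 rose and none fell at adjusted p under 0.05, beside 1.45% and 0.11% of all genes tested. GAME8 (Solyc06g061027.1.1), a cytochrome P450, stood at 119, 136 and 123 TPM in MeJA-primed seeds, against 66.0, 57.6 and 62.8 TPM in mock-primed seeds (1.02 ± 0.11, adjusted p = 4.34e-05). GAME17 (Solyc07g043480.1.1), a glucosyltransferase, rose by 0.98 ± 0.17. GAME11 (Solyc07g043420.3.1), a dioxygenase and the raised gene with the highest mean TPM, had 1129, 1766 and 1288 TPM under MeJA, against 772, 829.8 and 889.5 TPM under mock (0.75 ± 0.18, adjusted p = 0.0462). It lost its call in 5 of the 6 leave-outs, all but that of MeJA-primed replicate 1, with adjusted p between 0.0587 and 0.284. GAME18, GAME1 and GAME6 had log2 fold changes of 1.22 ± 0.32, 1.05 ± 0.36 and 0.63 ± 0.19 without passing the test. Their regulator GAME9 (0.83 ± 0.58), and GAME4 (0.24 ± 0.43) and GAME12 (-0.08 ± 0.23), all had their lowest level in mock-primed replicate 3, at 0.477, 12.5 and 95.7 TPM, against 3.83 to 6.26, 50.7 to 52.1 and 205 to 225 TPM in the other 2 mock-primed libraries.

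In the mevalonate and sterol pathway, which leads to cholesterol and the plant sterols, 6 of 15 described genes rose and 9 were not called, beside 10.6% raised of all described genes. Squalene synthase (Solyc01g110290.3.1), its committed step, stood at 53.2, 62.4 and 59.2 TPM in MeJA-primed seeds, against 15.3, 15.5 and 10.9 TPM in mock-primed seeds (2.09 ± 0.12, adjusted p = 2.36e-08). Squalene epoxidase (Solyc04g077440.4.1) had 109, 101 and 104 TPM under MeJA, against 64.9, 62.4 and 66.3 TPM under mock (0.70 ± 0.11). 3-hydroxy-3-methylglutaryl coenzyme A synthase (Solyc08g007790.3.1), an early mevalonate enzyme, rose by 1.18 ± 0.18. Methylsterol monooxygenase 2-1 (Solyc06g005750.3.1), 7-dehydrocholesterol reductase (Solyc06g074090.3.1) and delta(14)-sterol reductase (Solyc09g009040.3.1) rose by 1.37 ± 0.28, 0.54 ± 0.11 and 0.54 ± 0.11. Each of those last calls was lost without MeJA-primed replicate 2 or without mock-primed replicate 1 or 2 (adjusted p up to 0.0664, 0.120 and 0.104 in these leave-outs), the first also without mock-primed replicate 3 (0.0764) and the third without MeJA-primed replicate 3 (0.0845).

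Among enzymes and carriers that modify and move small molecules, 15 of 34 described glycosyltransferases, 9 of 33 cytochromes P450, 6 of 14 glutathione S-transferases, 5 of 17 DETOXIFICATION (multidrug and toxin extrusion) carriers and 4 of 18 ABC transporters rose, and 1 cytochrome P450 fell, beside 10.6% and 0.723% of all described genes. Of the raised members 7, 7, 3, 1 and 2 were called in all 6 leave-outs. The glutathione S-transferase Solyc07g056480.3.1 stood at 90.8, 119.5 and 257 TPM in MeJA-primed seeds, against 11.1, 12.5 and 8.48 TPM in mock-primed seeds (3.87 ± 0.41, adjusted p = 3.75e-05). ABC transporter C family member 8 (Solyc12g044820.3.1) had 1.47, 2.46 and 2.41 TPM under MeJA, against 0.0387, 0.113 and 0.0731 TPM under mock (4.79 ± 0.32). Geraniol 8-hydroxylase (Solyc02g090350.4.1), a monoterpene P450 in other plants, gave 63, 57 and 57 counts under MeJA, against 0, 1 and 0 under mock, a ratio of 176 (31.2 to 6996). The glycosyltransferase Solyc08g006410.4.1 stood at 8.60, 10.97 and 25.3 TPM under MeJA, against 0.824, 0.491 and 0.509 TPM under mock (4.59 ± 0.58).

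Of 31 genes described as cell wall genes, 6 rose and 2 fell, beside 10.6% and 0.723% of all described genes. The other 23 were not called, and the median log2 fold change was 0.05. A cellulose synthase (Solyc11g005560.3.1) and mannan endo-β-mannosidase 6 fell, while another cellulose synthase (Solyc12g015770.3.1) rose by 0.50. Some of the raised ones were neighbours. Pectinesterases, which loosen or set pectin by removing its methyl groups, included a pair close to silent under mock. Solyc02g080200.4.1 stood at 23.5, 24.8 and 21.4 TPM in MeJA-primed seeds, against 0.402, 0.174 and 0.116 TPM in mock-primed seeds (6.65 ± 0.36, adjusted p = 1.59e-08), and its neighbour Solyc02g080220.3.1 rose by 6.32 ± 0.45. The L-arabinokinase genes Solyc07g016160.3.1 and Solyc07g016170.4.1, of an enzyme that recycles arabinose released from walls, had 50.4, 49.3 and 45.9 TPM and 78.7, 79.1 and 69.6 TPM under MeJA, against 2.19, 2.43 and 3.83 TPM and 6.096, 5.70 and 5.21 TPM under mock. A pistil extensin-like gene (Solyc01g006400.4.1) rose with a wider spread, at 45.7, 197 and 62.3 TPM under MeJA, against 1.34, 1.61 and 0.460 TPM under mock (6.60 ± 0.70). In all, 49 of the 289 raised genes (16.96%) had another raised gene as the next gene tested in identifier order, beside 2.82% of all genes tested, in 22 runs of 2 to 5 genes.

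Among described regulators, 4 of 8 NAC genes, 5 of 13 WRKY genes, 1 of 14 ERF/AP2 genes, 2 of 9 ethylene genes and 4 of 24 cytokinin and auxin genes rose, beside 10.6% of all described genes, and 1 of the cytokinin and auxin genes fell. The 4 NAC genes were also called in every leave-out, and the largest change among them was in Solyc04g009440.3.1, at 11.97, 10.4 and 30.96 TPM in MeJA-primed seeds, against 1.01, 1.62 and 0.708 TPM in mock-primed seeds (4.02 ± 0.46). Of the WRKY genes, WRKY37 (Solyc01g079360.4.1, 2.13 ± 0.29) and WRKY78 (Solyc07g055280.4.1, 1.29 ± 0.23) were called in every leave-out. Ethylene-responsive factor 1 (Solyc05g051200.1.1) rose too, with 32.2, 30.0 and 27.2 TPM under MeJA, against 5.34, 9.58 and 10.1 TPM under mock (1.83 ± 0.29). The description words that chose the ERF/AP2 and ethylene families missed this gene, so the 1 of 14 does not cover all ERF genes. The ethylene receptor gene ETR4 (Solyc06g053710.3.1, 1.61 ± 0.22) was raised as well. Cytokinin oxidase6 (Solyc12g008900.2.1), which degrades cytokinins, stood at 180.3, 211 and 192 TPM under MeJA, against 36.96, 50.2 and 49.96 TPM under mock (2.07 ± 0.26, adjusted p = 1.69e-04). The auxin repressor IAA15 (Solyc03g120390.3.1) rose by 2.17 ± 0.31.

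A set of raised genes owed much of its size to MeJA-primed replicate 3. In 17 of the 289 raised genes the TPM of that library was over 3 times that of both other MeJA-primed libraries, against 0 genes for replicate 1 and 3 for replicate 2. TOMATO WOUND-INDUCED 1 (Solyc01g107820.2.1) stood at 14.98, 12.5 and 162 TPM under MeJA, against 6.097, 4.91 and 3.00 TPM under mock. A xyloglucan endoglucanase inhibitor (Solyc01g080010.2.1), which blocks a fungal wall-degrading enzyme, had 8.34, 5.06 and 191 TPM under MeJA, against 2.43, 3.21 and 1.71 TPM under mock. The glutathione S-transferase Solyc07g056470.3.1 (3.98, 7.06 and 143 TPM under MeJA, against 3.02, 2.06 and 1.88 TPM under mock) behaved likewise. Without that library the median log2 fold change of the 17 genes was 1.77, beside 4.48 with it. All 17 remained higher under MeJA without it, and 8 of them lost their call. Of the 12 genes with the largest fold changes by rule, 2 are of this kind and have no annotation here, Solyc11g011340.2.1 (0.244, 0.816 and 101 TPM under MeJA, against 0.166, 0.243 and 0.156 TPM under mock) and Solyc01g107780.4.1 (0.531, 0.370 and 10.7 TPM, against 0, 0.105 and 0 TPM). With and without replicate 3, the log2 fold change was 7.44 and 1.51 for Solyc11g011340.2.1 and 6.63 and 3.55 for Solyc01g107780.4.1. TOMATO WOUND-INDUCED 1, the endoglucanase inhibitor, the glutathione S-transferase and both of these genes lost their call without any one mock-primed library (adjusted p between 0.0528 and 0.161), and the endoglucanase inhibitor and Solyc11g011340.2.1 also without MeJA-primed replicate 3 (adjusted p = 0.0592 and 0.644).

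The lowered genes were few and moved little. Of the 22, 4 were called in all 6 leave-outs. A cytochrome gene (Solyc08g076250.3.1) was the clearest, at 12.2, 10.0 and 10.5 TPM in MeJA-primed seeds, against 22.4, 22.1 and 23.3 TPM in mock-primed seeds (-1.06 ± 0.13, adjusted p = 1.10e-04). A carbonic anhydrase (Solyc05g005490.4.1), which interconverts carbon dioxide and bicarbonate, stood at 13.1, 8.68 and 9.27 TPM under MeJA, against 19.3, 24.7 and 21.2 TPM under mock (-1.07 ± 0.18). A WAT1-related gene (Solyc09g010360.3.1), of a family with a vacuolar auxin transporter in Arabidopsis, had 1.63, 1.52 and 1.86 TPM under MeJA, against 2.96, 4.47 and 3.47 TPM under mock (-1.12 ± 0.19). An aspartic proteinase (Solyc02g032940.4.1) stood at 84.7, 58.2 and 63.8 TPM under MeJA, against 106, 118 and 93.0 TPM under mock (-0.61 ± 0.11).

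The other lowered genes lost their call in 1 or more leave-outs, MeJA-primed replicate 2 being the library that most often decided. A SWEET sugar transporter (Solyc04g064610.3.1) stood at 1.51, 0.448 and 1.14 TPM under MeJA, against 2.52, 3.86 and 2.68 TPM under mock (adjusted p up to 0.225 in the leave-outs). The M17-like late embryogenesis abundant gene Solyc09g098400.3.1 had 79.3, 93.0 and 120.3 TPM under MeJA, against 234, 257 and 158 TPM under mock (up to 0.192). The two-component response regulator ARR18 (Solyc01g108300.3.1), of the cytokinin signalling family, had 2.99, 2.48 and 3.50 TPM under MeJA, against 4.86, 4.82 and 4.37 TPM under mock (up to 0.192). Mannan endo-β-mannosidase 6 (Solyc11g012190.3.1), of the family that softens the endosperm around the radicle, stood at 9.12, 9.96 and 9.22 TPM under MeJA, against 16.8, 12.9 and 14.7 TPM under mock (up to 0.200). The count of lowered genes moved with single libraries, between 7 without MeJA-primed replicate 2 and 45 without mock-primed replicate 3, and was 40 without mock-primed replicate 3 of Micro-Tom, which shares the estimate of spread.

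**Figure D4:**
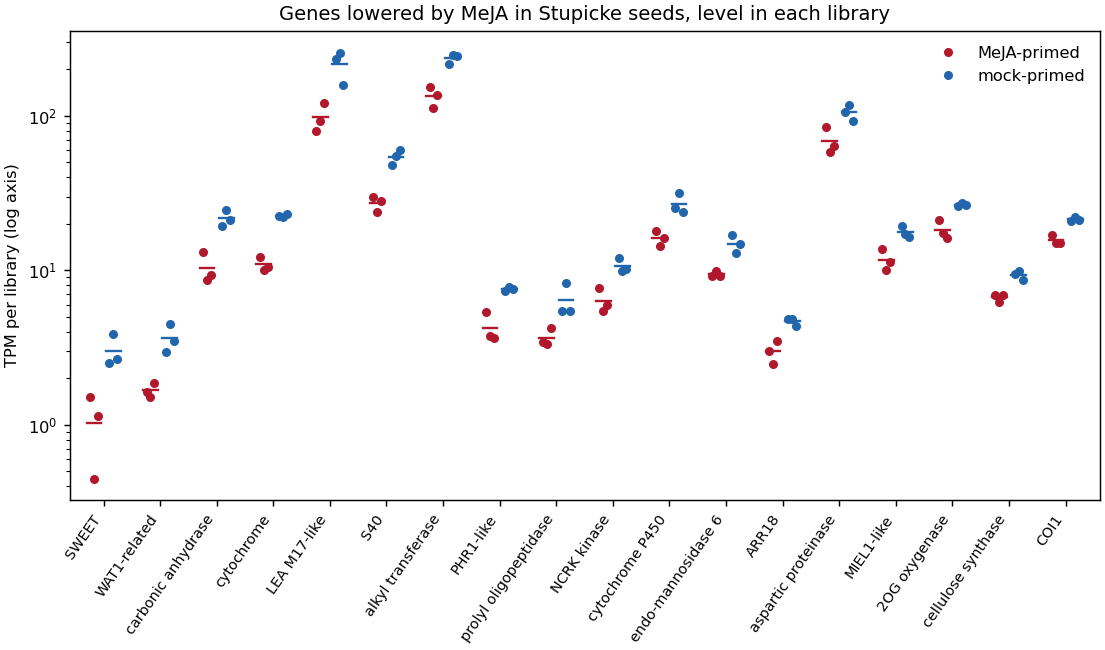
TPM in each library (vertical log axis) of 18 genes lowered by MeJA in Stupicke seeds with a mean of at least 1 CPM, with MeJA-primed libraries in red left of mock-primed libraries in blue and a line at each mean. The groups do not overlap in any of them, and the cytochrome gene lies between 10.0 and 12.2 TPM under MeJA and between 22.1 and 23.3 TPM under mock.

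Summed storage and desiccation transcripts did not differ beyond the spread between replicates. The 13 storage protein genes on the list of seed exudate proteins summed to 26811, 34542 and 28366 TPM in MeJA-primed seeds, against 32000.3, 29347 and 33146 TPM in mock-primed seeds (ratio of means 0.949, exact two-sided permutation p = 0.7). The 15 late embryogenesis abundant genes chosen the same way summed to 64636, 79782 and 66007 TPM under MeJA, against 66748, 53828 and 68369 TPM under mock (ratio 1.11, exact p = 0.6). The 8 described photosynthesis genes summed to 55.6, 56.2 and 58.7 TPM under MeJA, against 50.4, 49.0 and 48.3 TPM under mock. Their ratio was 1.15 in TPM and 1.19 in CPM (exact p = 0.1 in each). For the 22 described cell cycle genes it was 0.940 in TPM (exact p = 0.1) and 0.971 in CPM (exact p = 0.7). Described genes were in part picked out as responsive to MeJA. The smallest p that 3 against 3 libraries allow is 0.10. Of 307 tested genes on the list of proteins detected in seed exudates, 8 (2.61%) rose and none fell at adjusted p under 0.05, beside 1.45% and 0.11% of all genes tested. The proteins on that list were detected in pooled exudates of MeJA-treated seeds of all genotypes, so this is not a like comparison. Those 8 included allene oxide cyclase, AOS3 and a 4-coumarate-CoA ligase (Solyc03g111170.3.1, 31.9, 40.6 and 37.4 TPM under MeJA, against 11.67, 12.8 and 12.4 TPM under mock), which were the 3 called in every leave-out.

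Most raised genes were also called in another genotype, since 205 of the 289 (70.9%) rose in Criollo, beside 3.19% of all genes tested, and 244 (84.4%) in Micro-Tom, beside 7.98%. They made up 32.3% of the genes that rose in Criollo and 15.4% of those that rose in Micro-Tom. The median log2 fold change of the 289 genes was 1.63 in Stupicke, 1.32 in Criollo and 1.60 in Micro-Tom, though the genes were selected in Stupicke. A call in one genotype and not in another is no difference between them, so the difference of the responses was tested itself. The response in Stupicke differed from that in Criollo for 6 genes (0.0301%) and from that in Micro-Tom for 89 genes (0.447%). At an unadjusted p under 0.05 the shares were 7.8% and 15.3%.

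Against Criollo, the log2 fold change was higher in Stupicke for 1 of the 6 genes (0.00502% of all tested) and lower for 5 (0.0251%). With the replicate block 0 genes were called in edgeR, with DESeq2 98 (20 higher, 78 lower) and with limma on log2(TPM + 1) 40, of which 25 were higher and 15 lower in Stupicke. Squalene synthase rose by 2.09 in Stupicke and by 0.91 in Criollo on the log2 scale (difference 1.18 ± 0.16, adjusted p = 0.0166). The difference was lost without MeJA-primed replicate 1 or any mock-primed library of Criollo, or without MeJA-primed replicate 3 of Stupicke (adjusted p up to 0.0888). The Rossmann-fold gene Solyc06g083480.4.1 rose by 0.85 in Stupicke and by 2.32 in Criollo, and this difference (-1.47 ± 0.17, adjusted p = 0.00324) was the one of the 6 called in all 18 leave-outs, though it was not called with the replicate block.

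Against Micro-Tom, the log2 fold change was lower in Stupicke for 82 of the 89 genes (0.412% of all tested) and higher for 7 (0.0352%). Higher does not mean a larger response. The endoglucanase Solyc12g055970.3.1 rose more in Stupicke (2.07 against 0.35). Others, such as Solyc02g084610.1.1, fell in Micro-Tom (-1.03) and moved little in Stupicke (0.13). The count was 12 with the replicate block (0 higher), 16 with the libraries of the 2 genotypes alone (1 higher) and 532 with DESeq2 (119 higher). The median log2 fold change of these 89 genes was -0.01 in Stupicke, 0.68 in Criollo and 1.55 in Micro-Tom, and 21 of them were called in Stupicke. The genes were selected by the difference between Stupicke and Micro-Tom, so the medians of those genotypes were bound to lie apart. The 2-oxoglutarate oxygenase Solyc10g085190.2.1 rose by 0.88 in Stupicke and by 3.28 in Micro-Tom (difference -2.40 ± 0.22, adjusted p = 1.31e-04). The NAC gene Solyc11g017470.2.1 rose by 0.90 in Stupicke and by 2.62 in Micro-Tom, and the ethylene-responsive factor Solyc04g071770.3.1 by 0.98 in Stupicke and by 3.09 in Micro-Tom. The log2 fold change of ARR18 (Solyc01g108300.3.1) was -0.65 in Stupicke and 0.68 in Micro-Tom (-1.34 ± 0.21). These 4 were among the 11 genes whose difference was called in all 18 leave-outs, though within Stupicke the calls of Solyc04g071770.3.1 and ARR18 were each lost in 5 of the 6 leave-outs (adjusted p up to 0.118 and 0.192). The count of 89 moved between 15 and 190 with single libraries, with the lowest count without MeJA-primed replicate 1 of Micro-Tom or mock-primed replicate 3 of Stupicke and the highest without mock-primed replicate 1 of Micro-Tom.

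**Figure D5:**
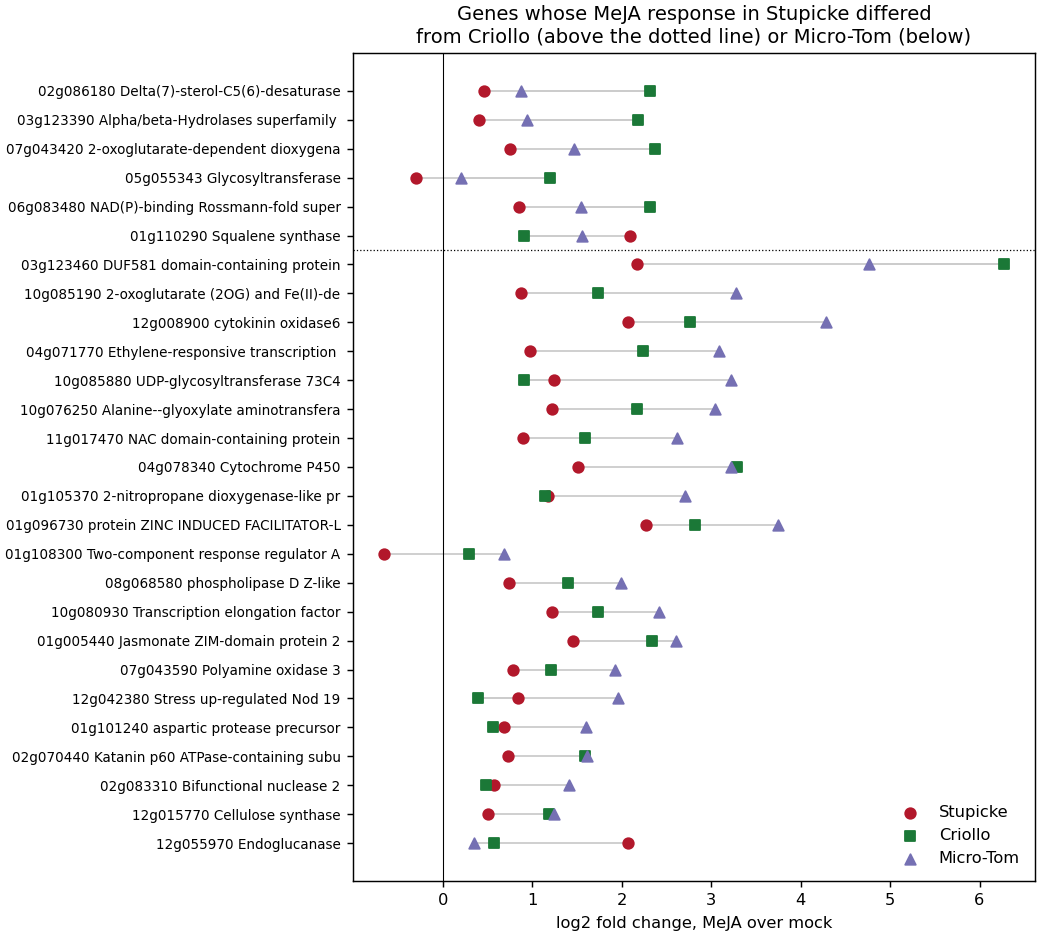
Log2 fold change of MeJA over mock (horizontal axis) in Stupicke (red circles), Criollo (green squares) and Micro-Tom (violet triangles) for the 6 genes whose response in Stupicke differed from Criollo and for 21 genes called in Stupicke whose response differed from Micro-Tom. Stupicke lies at the low end in most of them, and squalene synthase and the endoglucanase Solyc12g055970.3.1 are the ones where it lies at the high end.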

How the data were processed

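Estimated counts and TPM per gene were deposited by the authors, who quantified the reads against tomato annotation ITAG4.0 on genome SL4.0 (Salmon 1.2 in the submitters' processing notes). TPM, as deposited by the authors, is scaled to transcript length and to a fixed total per library. The deposited estimated counts were rounded to whole numbers here. One edgeR (4.0.16) quasi-likelihood model with 1 mean for each of 6 groups was fitted to all 18 libraries with TMM factors after filterByExpr, which kept 19914 of 33976 genes. Adjusted p-values are Benjamini-Hochberg over all genes tested, SE is the log2 fold change over the square root of F, and calls use 0.05. DESeq2 (1.42.0) and limma (3.58.1) on log2(TPM + 1) and log2(TPM + 0.1) were alternatives, beside other filters, scalings and leaving out each library. A test on simulated data for the Stupicke comparison recovered 170 of 200 changed genes with 10 false calls (DESeq2 181 with 37). The changed genes had a mean of at least 1 CPM and a log2 change of 1.5 up or down, and no simulated library was made to stand apart. Recovery of smaller changes, of genes at lower levels or beside a library that stands apart was not tested. Figures used Python 3.11.15.

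The 6 libraries are described as biological replicates. No pair of libraries was alike within sampling noise. Counting intervals are exact (Clopper-Pearson) at 95% and cover counting error only. Named genes are the 12 largest rises, the 8 next raised genes by TPM under MeJA and the lowered genes (mean CPM 1 or more, no overlap between groups), members of the lists, up to 4 members of a family, and genes whose response differed from another genotype. Other single genes and some families (ILR1-like, chitinases, osmotins, sterol genes, carriers) were chosen after their values were seen. Members and lists were chosen with earlier results of these data known. Descriptions, from the tables of the study, cover 298 of the 311 called genes. The authors' fold changes and p-values there were not used. Promoter sequences were not analysed here. One lowered gene is counted but not reported here.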

Additional observations from a re-analysis of the deposited data

Results flagged for a closer look

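Tests of the difference between 2 genotypes' responses singled out 6 genes for Stupicke minus Criollo and 89 genes for Stupicke minus Micro-Tom. The difference in log2 fold change from Criollo was 1.18 for squalene synthase (Solyc01g110290.3.1), -1.85 for delta(7)-sterol-C5(6)-desaturase (Solyc02g086180.4.1), -1.78 for an alpha/beta-hydrolase (Solyc03g123390.4.1), -1.50 for a glycosyltransferase (Solyc05g055343.2.1), -1.47 for the Rossmann-fold gene Solyc06g083480.4.1 and -1.62 for GAME11 (Solyc07g043420.3.1). Without single libraries 1 to 11 genes differed, and only the Rossmann-fold gene was called in all 18 leave-outs.

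Among genes called in Stupicke, the difference from Micro-Tom was below 0 for 20 and above 0 for 1, the endoglucanase Solyc12g055970.3.1 (1.72). It was -2.60 for the DUF581 gene Solyc03g123460.4.1, -2.40 for the oxygenase Solyc10g085190.2.1, -2.21 for cytokinin oxidase6, -2.11 for the ethylene-responsive factor Solyc04g071770.3.1 and -1.98 for UDP-glycosyltransferase 73C4 (Solyc10g085880.1.1). For alanine-glyoxylate aminotransferase 2 (Solyc10g076250.2.1) it was -1.81, for the NAC gene Solyc11g017470.2.1 -1.71, for the cytochrome P450 Solyc04g078340.3.1 -1.71, for the 2-nitropropane dioxygenase-like gene Solyc01g105370.4.1 -1.53 and for the ZIFL1-like gene Solyc01g096730.2.1 -1.48. ARR18 (Solyc01g108300.3.1) had -1.34, the phospholipase D gene Solyc08g068580.4.1 -1.26, a transcription elongation factor (Solyc10g080930.2.1) -1.19, JAZ6 -1.15, polyamine oxidase 3 (Solyc07g043590.3.1) -1.13 and Nod 19 (Solyc12g042380.2.1) -1.12. The smallest differences were in an aspartic protease (Solyc01g101240.4.1, -0.91), a katanin subunit (Solyc02g070440.3.1, -0.88), bifunctional nuclease 2 (Solyc02g083310.3.1, -0.84) and a cellulose synthase (Solyc12g015770.3.1, -0.74). Of the genes in this paragraph, only the oxygenase, the ethylene-responsive factor, the NAC gene and ARR18 were called different in all 18 leave-outs. The DUF581 gene, with the largest difference, was called in 7 of them, and the aspartic protease and Nod 19 in 3 (adjusted p up to 0.145 and 0.152). Groups of 3 libraries are too small for a test of single outlying libraries.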

How the results depend on the processing

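Across 26 alternatives other than a minimum fold change, 111 of the 289 raised and 3 of the 22 lowered genes were called each time. The MeJA effect in Stupicke counted 457 genes with DESeq2 (415 raised, 42 lowered, 301 shared) and 221 with the 6 Stupicke libraries alone (13 lowered). Genes lowered were 8 at a log2 fold change of at least 1 and 14 with limma on log2(TPM + 0.1). Samples of the 2 groups share replicate numbers, and deviations of same-numbered libraries correlated at 0.31, 0.02 and 0.23. MeJA-primed replicates 1 and 3 were closest to the mock-primed library of the same number, and replicate 2 to mock-primed replicate 3 (0.05). These values do not settle whether the libraries were paired. The main fit did not take the numbers as pairs. With the replicate block, 175 genes were called (170 raised, 5 lowered, 166 shared), with 0 differences from Criollo (edgeR) and 12 from Micro-Tom. For those differences, DESeq2 gave 98 and 532 genes, limma on log2(TPM + 1) 40 and 208 (25 of the 40 higher in Stupicke and 15 lower), and the libraries of the 2 genotypes alone 16 for Micro-Tom. At unadjusted p under 0.05 and without the block, 7.80% of genes differed from Criollo. Leaving out 1 library gave 167 to 420 genes for the MeJA effect (159 to 380 raised, 7 to 45 lowered), 1 to 11 for Criollo and 15 to 190 for Micro-Tom. Direction was not fixed in every named gene. Solyc01g006600.3.1, not called in Stupicke, had a log2 fold change of -0.20 there, and of 0.14 without mock-primed replicate 1 of Stupicke. The summed level of raised genes had a ratio of 2.60 in TPM and 2.35 in TMM-scaled CPM. The planned search of promoters was not run. The cause of these moves was not tested. Genes at a few counts in mock-primed seeds are limited by depth.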
